A study of Mus musculus with 12 samples.

Results

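The nuclear genes for subunits of respiratory complex I were followed across mouse hearts with and without pressure overload. Members were all protein-coding genes whose symbol is Nduf, then a, b, c, s or v, then a number. The rule found 36 genes among 54146 gene records, of which 21906 were protein-coding. The pattern does not match Ndufab1, Ndufb1-ps or Ndufa4l2, which were tested but not counted as members. No measured value entered the rule. All 36 passed the low-count filter and were tested beside the other genes, 15477 in all.

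Polyadenylated RNA from mouse hearts was sequenced in 12 libraries, 4 in each of 3 groups, all taken 6 weeks after surgery. Sham WT were wild-type mice with sham surgery. TAC WT were wild-type mice with transverse aortic constriction (TAC), a surgical narrowing of the aorta that raises the pressure the left ventricle works against. TAC KO were NRON knockout mice with TAC, which lack the long noncoding RNA Nron. The labels give neither the strain, age and sex of the mice nor how the knockout was made or in which cells. A knockout group with sham surgery was not analysed here, so an effect of the genotype that is present without TAC cannot be told apart from one that needs it. Whether the libraries of a group stand for different animals is not stated in the labels. The p-values therefore reflect only the differences among these libraries, which may be technical.

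Complex I takes electrons from NADH, passes them along a chain of iron-sulfur clusters to ubiquinone, and pumps protons across the inner mitochondrial membrane. Its core subunits in the matrix arm are encoded in the nucleus and those in the membrane arm by mitochondrial DNA. Many accessory subunits, all nuclear, surround this core and are needed to assemble or hold it. Heart muscle depends heavily on oxidative phosphorylation for its energy.

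RefSeq promoter windows on GRCm38.p6, from 250 bases before to 50 bases after a transcription start, were given for 32 of the 36 genes. They were searched on both strands for letters bound by known regulators of mitochondrial genes. The NRF1 letters GCGCATGC were in 3 of 32 genes (9.38%) and in 3.05% of the 27025 genes with a window. The ETS/GABP letters CCGGAAGTG were in 1 of 32 (3.13%, against 2.25%) and the ERR letters TCAAGGTCA in 0 of 32 (against 0.466%). The YY1 letters AAGATGGC were in 7 of 32 (21.9%, against 3.19%). The 27025 genes were not limited to protein-coding genes, as the members are, so the shares compare unlike sets. No 2 of these motifs shared bases in a member, except that the NRF1 letters in Ndufa11 overlap their own copy on the other strand. The 30 bases around the matches are shown because all 7 YY1 matches lay on the gene's own strand after the start, and the ATG inside each was an annotated start codon. Capitals mark the motif, and bases run 5′ to 3′ along the gene. Distances are to the first base of the motif along the gene, so most of the Ndufs3 motif lies after the start.
Ndufa3, YY1, 22 bases after the start, chr7:3617384-3617413, plus strand: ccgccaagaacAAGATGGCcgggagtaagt
Ndufa9, YY1, 29 bases after, chr6:126849097-126849126, minus strand: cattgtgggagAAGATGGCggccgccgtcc
Ndufb8, YY1, 38 bases after, chr19:44555393-44555422, minus strand: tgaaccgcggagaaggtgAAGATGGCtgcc
Ndufc1, YY1, 22 bases after, chr3:51408915-51408944, minus strand: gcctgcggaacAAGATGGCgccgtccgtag
Ndufs4, YY1, 35 bases after, chr13:114388045-114388074, minus strand: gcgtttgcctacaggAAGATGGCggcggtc
Ndufs6, YY1, 33 bases after, chr13:73328433-73328462, minus strand: aagggtcaccggcAAGATGGCggcggtgct
Ndufs7, YY1, 24 bases after, chr10:80249462-80249491, plus strand: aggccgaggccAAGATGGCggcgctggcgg
Ndufa11, NRF1, 60 bases before the start, chr17:56717691-56717720, plus strand: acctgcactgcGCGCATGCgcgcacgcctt
Ndufa6, NRF1 on the opposite strand, 83 bases before, chr15:82354356-82354385, minus strand: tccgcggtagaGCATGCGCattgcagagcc
Ndufa8, NRF1 on the opposite strand, 8 bases before, chr2:36049328-36049357, minus strand: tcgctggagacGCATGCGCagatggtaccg
Ndufs3, ETS/GABP on the opposite strand, 1 base before, chr2:90904703-90904732, minus strand: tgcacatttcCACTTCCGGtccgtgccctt
A match of letters is a description and not a measured site. The 11 genes with a match and the 21 with a window but no match had median log2 fold changes of 0.19 and 0.20 between TAC KO and TAC WT.

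Library totals ran from 26288519 to 35945770 counts, and no pair of libraries agreed within sampling noise. Cardiomyocyte markers were all present, with summed levels of 75594 to 93867 CPM (counts per 1000000 after scaling) in the 12 libraries. Both records of Nron had 0 counts in every library, wild type included, which allows at most 0.082 to 0.11 CPM per library (a limit of 3 counts, counting error only). The knockout could therefore not be checked in these data. Genes rich in G and C were relatively higher in TAC KO libraries: the richest minus the poorest quintile of genes gave 0.11 to 0.43 on the log2 scale there, against -0.15 to -0.05 in wild-type libraries. Long minus short genes gave -0.25 to -0.14 in TAC KO and -0.04 to 0.19 in wild type. The subunit genes are short and somewhat GC-rich. Their median transcript was 812 bases with 52.9% GC, against 2710 bases and 50.3% for all tested genes, and 29 of the 36 fell in the shortest quintile. For the subunit genes, each comparison below is therefore also given from a fit in which these 2 trends were removed from every library.

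Levels per transcript length were compared in Sham WT as CPM per kilobase of transcript (RPKM, n = 4). The median of the 36 genes was 330 RPKM, and the highest was 46.8 times the lowest. Ndufa4 stood first at 1292 ± 43.2 RPKM (SD). This gene carries a complex I name, but its protein is now placed in complex IV, cytochrome c oxidase. Ndufb10 followed at 739 RPKM. At the low end were Ndufs4 at 114 RPKM, Ndufs5 at 98.3 RPKM and Ndufb4 at 27.6 RPKM. The order hardly depended on the group, since 31 of 36 genes kept within 3 places of rank in all 3 groups. The listed genes thus differed far more from each other than any gene did between groups. The top of that range is the complex IV gene, and Ndufb10 is the highest of the others. At the low end, Ndufb4 and Ndufs5 have near-identical copies, so their levels may be affected by reads shared with those copies, which was not tested.

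**Figure D1:**
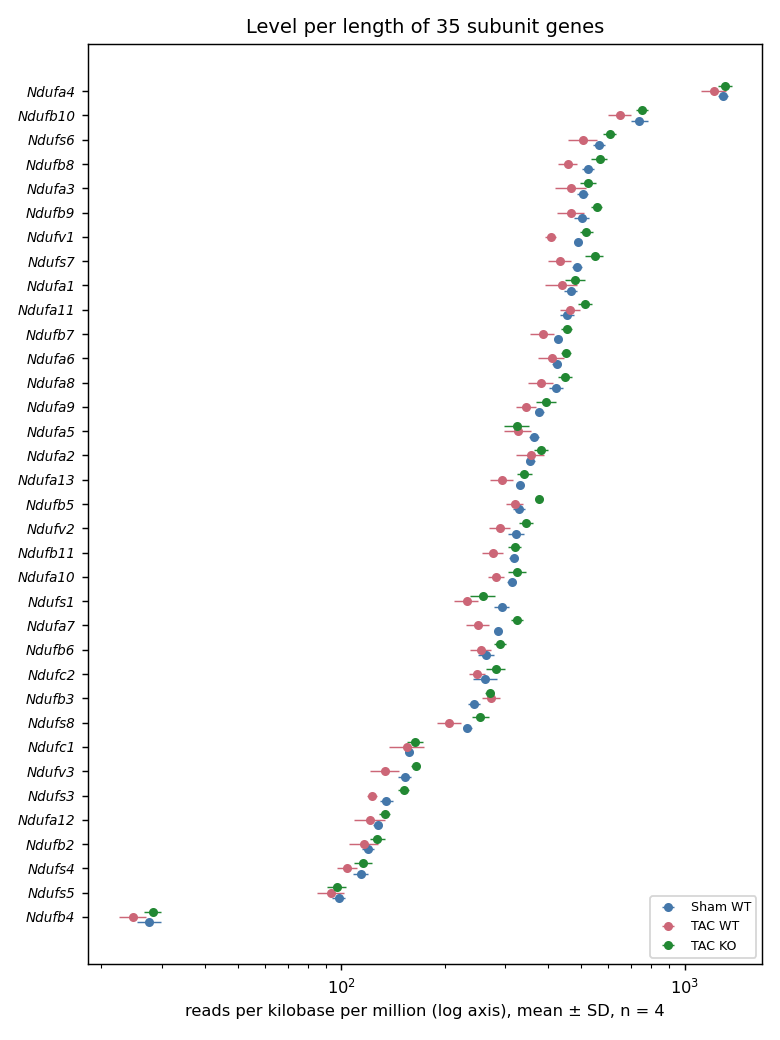
Level per transcript length of 35 of the 36 genes in RPKM on a log axis, with points for the group means and bars for the SD of 4 libraries. Ndufa4 is highest at 1292 RPKM and Ndufb4 lowest at 27.6 RPKM in Sham WT, and the groups lie close together within each gene.

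Some levels rest on reads that could belong to a neighbour or a copy. Processed pseudogenes matching 30% or more of the transcript with 95% identity or better were found for 7 members: Ndufa12, Ndufb3, Ndufb4, Ndufb11, Ndufs3, Ndufs5 and Ndufs6. The Ndufs3 copy, Gm12251, covered 75.7% of the transcript and had 497 counts in all 12 libraries together. Exons on the opposite strand overlapped 39% of the exon bases of Ndufb6 and 30% of those of Ndufa13. The library kit kept strand, but the sources used here do not say whether the counting used it. Exons of other genes on the same strand, which strand cannot separate, overlapped 19.5% of the exon bases of Ndufb9. For Ndufb8 and Ndufb2 the shares were 4.26% and 2.58%. The levels of these genes are uncertain to that extent.

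TAC in wild-type hearts was compared with sham surgery first. Ndufs1 and Ndufv1 were among the 6 subunit genes that edgeR called lower after TAC. The fold change was negative for 33 of 36 genes, with a median of -0.14 on the log2 scale against -0.00045 over all tested genes. Fewer passed the test: edgeR called 6 lower at a Benjamini-Hochberg adjusted p under 0.05, where 10.0% of all tested genes were called lower, and 0 higher, where the background was 9.67%. For the higher direction edgeR gave 1 gene at an unadjusted p under 0.05, and DESeq2 and limma voom called 1 each. The 4 TAC WT libraries lay wholly below the 4 Sham WT libraries for 9 of 36 genes, a pattern that 12.7% of tested genes showed. In heart tissue, fewer cells of a type and less RNA per cell cannot be told apart.

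The 2 most negative fold changes belonged to subunits that take up electrons from NADH. Ndufv1 (chromosome 19, 4007384 to 4012806, minus strand) encodes the subunit that binds NADH and its flavin. Its levels were 828, 797, 811 and 813 CPM in Sham WT and 657, 701, 699 and 653 CPM in TAC WT. Every TAC library was below every sham library, and the log2 fold change was -0.26 ± 0.06 (SE, edgeR adjusted p = 0.00429). Ndufs1 (chromosome 1, 63143596 to 63176833, minus strand), the largest subunit and a carrier of iron-sulfur clusters, had 812, 753, 744 and 728 CPM in Sham WT and 614, 664, 574 and 552 CPM in TAC WT. These groups were also apart, with a log2 fold change of -0.34 ± 0.08 (edgeR adjusted p = 0.00593). Ndufv2, an iron-sulfur subunit beside them, had -0.16 ± 0.07 and did not pass (edgeR adjusted p = 0.116).

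Ndufs3, Ndufs7 and Ndufs8 are core subunits of the part of the matrix arm next to the ubiquinone site. Their log2 fold changes ranged from -0.17 to -0.14 and did not pass (edgeR adjusted p = 0.0788, 0.101 and 0.0771).

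Of the 28 accessory genes, 3 passed, a share near the 10.0% of all tested genes called lower. Ndufa7, of the matrix arm, had 153, 153, 150 and 148 CPM in Sham WT against 119, 130, 144 and 134 CPM in TAC WT (log2 fold change -0.19 ± 0.06, edgeR adjusted p = 0.0395). The groups did not overlap, and TAC WT 3 came nearest to the sham libraries. Ndufb11, an X-linked subunit of the membrane arm, had -0.20 ± 0.06 (edgeR adjusted p = 0.0296) and Ndufb8 had -0.20 ± 0.06 (edgeR adjusted p = 0.042). Ndufb3, a small membrane-arm subunit, went the other way: 195, 187, 184 and 177 CPM in Sham WT and 201, 203, 228 and 204 CPM in TAC WT. Its groups did not overlap, yet its log2 fold change of 0.17 ± 0.06 missed the threshold (edgeR adjusted p = 0.0535). Ndufa4, the complex IV protein, had -0.08 ± 0.07 (edgeR adjusted p = 0.436).

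**Figure D2:**
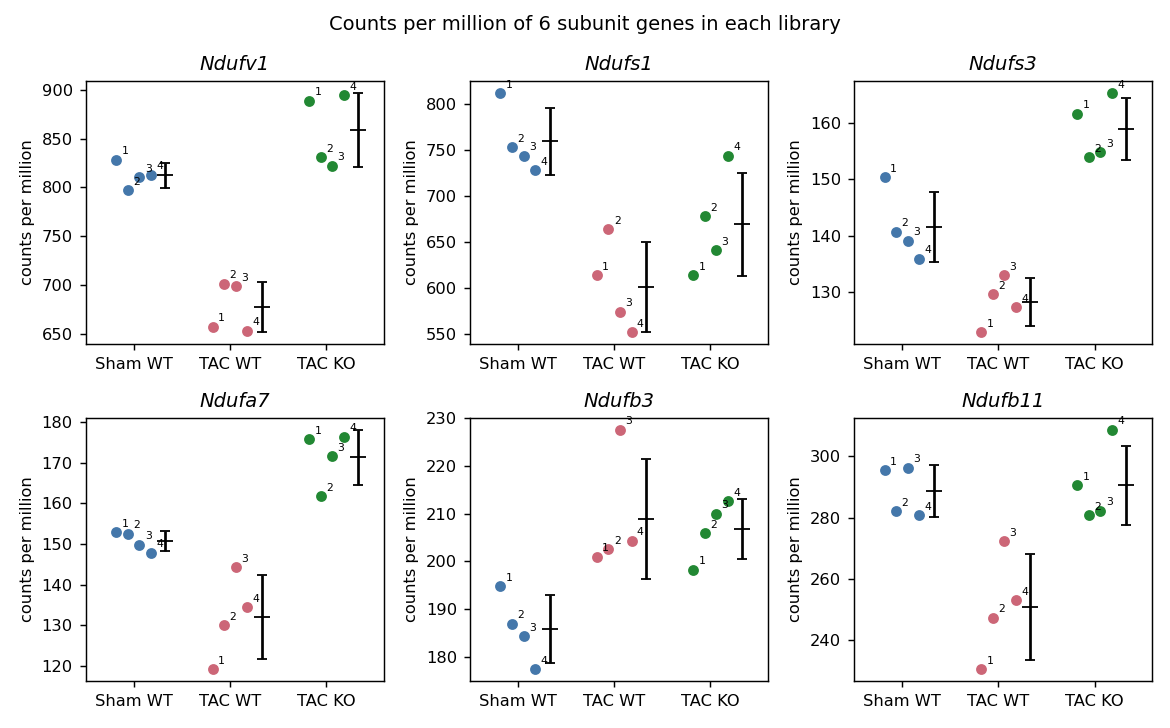
CPM of 6 subunit genes in each library. Points are libraries, numbered within their group, and bars are the mean and SD of 4. Ndufv1, Ndufs1, Ndufa7 and Ndufb11 are lower in TAC WT than in Sham WT with no overlap, and Ndufb3 is higher. The vertical axes do not start at 0.

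The summed level of the 36 genes was 12595, 11996, 12322 and 11847 CPM in the Sham WT libraries and 10320, 11103, 11951 and 10654 CPM in TAC WT. The TAC WT 3 library stood above its group mean for 35 of 36 genes and TAC WT 1 for 1 of 36. Without TAC WT 3, edgeR called 15 genes lower, and without any single library of Sham WT or any other of TAC WT it called 2 or 3. Ndufs1 and Ndufv1 passed in every one of these fits. The share of all tested genes called in these fits is not given here. A change in these counts may therefore not be particular to the subunit genes. After removal of the GC and length trends edgeR called 13 genes lower (11.6% of all tested genes) and 1 higher (11.0%). The 6 first calls were among the 13, the gene called higher was Ndufb3 at 0.18 (edgeR adjusted p = 0.00657), and the median was again -0.14.

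TAC KO hearts were next compared with TAC WT hearts, which bears on the effect of lacking Nron under pressure overload. Of the 36 subunit genes, edgeR called 20 higher in the knockout, against 15.7% of all tested genes, and 0 lower, against 17.3%, and the other 16 were not called. The fold change was positive for 34 of 36 genes with a median of 0.20 on the log2 scale, against -0.0020 over all tested genes. In the lower direction edgeR found 0 at an unadjusted p under 0.05, and DESeq2 and limma voom also called 0. The 4 TAC KO libraries lay wholly above the 4 TAC WT libraries for 19 genes, a pattern seen in 13.3% of tested genes. Of 3 symbols outside the rule, edgeR called 1 higher, Ndufa4l2, and 0 lower. The means of Ndufab1 were 132 CPM in TAC KO and 132 CPM in TAC WT, and those of Ndufb1-ps 131 and 132 CPM. With the GC and length trends removed, 0 of the 3 were called higher and 1 lower, Ndufb1-ps, against 12.4% and 13.9% of tested genes. TAC WT enters this comparison and the preceding one, so the 2 are not independent, and a low TAC WT library moves both.

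Of the subunits that take up electrons from NADH, 2 of 3 were called higher. Ndufv1 had 889, 831, 822 and 894 CPM in TAC KO, above all 4 TAC WT libraries, with a log2 fold change of 0.34 ± 0.06 (1.27-fold, edgeR adjusted p = 0.000555). Ndufv2 had 561, 591, 569 and 626 CPM against 466, 505, 537 and 462 CPM, again without overlap, and a log2 fold change of 0.25 ± 0.07 (edgeR adjusted p = 0.0102). Ndufs1, the gene with the lowest fold change after TAC, was not called: its 614, 678, 641 and 744 CPM overlapped the TAC WT range (0.15 ± 0.08, edgeR adjusted p = 0.129).

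Ndufs3, Ndufs7 and Ndufs8, of the part of the matrix arm next to the ubiquinone site, were called higher as well. Ndufs3 (chromosome 2, 90894634 to 90904827, minus strand) had 162, 154, 155 and 165 CPM against 123, 130, 133 and 127 CPM in TAC WT, a log2 fold change of 0.31 ± 0.05 (edgeR adjusted p = 0.000866). Ndufs7, which carries the last iron-sulfur cluster before the quinone, had 421, 398, 392 and 447 CPM against 309, 321, 367 and 320 CPM (0.33 ± 0.07, edgeR adjusted p = 0.00206). Both were apart in all libraries. Ndufs8, another cluster subunit, had 0.30 ± 0.07 (edgeR adjusted p = 0.0036).

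In the accessory matrix arm 4 of 9 genes were called higher. Ndufa7 (chromosome 17, 33824572 to 33838317, plus strand) had the highest fold change of all members, with 176, 162, 172 and 176 CPM in TAC KO and a log2 fold change of 0.38 ± 0.06 (1.3-fold, edgeR adjusted p = 0.000579). Its lowest knockout library was above every TAC WT and every Sham WT library. Ndufv3, Ndufs6 and Ndufa9 followed at 0.30, 0.26 and 0.19 (edgeR adjusted p = 0.0051, 0.0108 and 0.0364). Ndufa9 sits near the quinone site, and Ndufs6 binds zinc. Ndufs4, whose loss in mice causes fatal disease of the brain, had 0.15 ± 0.07 and was not called (edgeR adjusted p = 0.0894).

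In the accessory membrane arm 10 of 19 genes were called higher. These were Ndufa8, Ndufa10, Ndufa13, Ndufb5, Ndufb6, Ndufb7, Ndufb8, Ndufb9, Ndufb10 and Ndufb11, with log2 fold changes from 0.19 for Ndufb6 to 0.31 for Ndufb8. Ndufb8 had 402, 360, 375 and 402 CPM in TAC KO against 290, 313, 337 and 305 CPM in TAC WT (edgeR adjusted p = 0.00248). Ndufb5 had 402, 409, 397 and 414 CPM against 323, 344, 371 and 342 CPM (0.23 ± 0.06, edgeR adjusted p = 0.00702). Its knockout libraries were above all wild-type libraries of both groups. Ndufb4, Ndufc2 and Ndufa3 came nearest among those not called in this arm, at 0.19, 0.18 and 0.17 (edgeR adjusted p = 0.0654, 0.0566 and 0.0893). Ndufb3 and the matrix-arm gene Ndufa5 were the 2 negative members, both at -0.01 (edgeR adjusted p = 0.867 and 0.918). Ndufa4 had 0.10 ± 0.07 (edgeR adjusted p = 0.261).

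**Figure D3:**
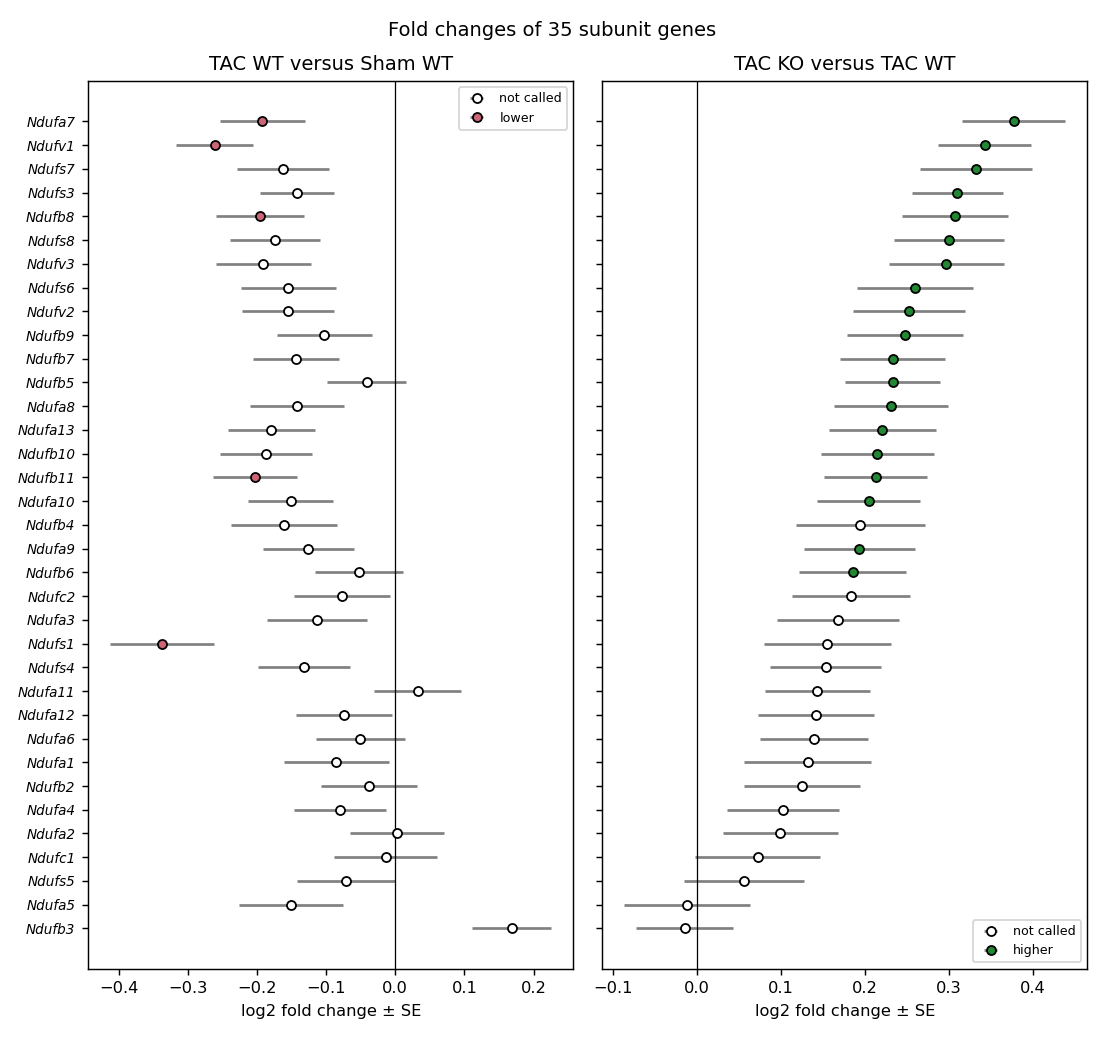
Log2 fold change ± SE of 35 of the 36 genes, ordered by the TAC KO versus TAC WT value. Filled points passed the edgeR threshold. Most values lie below 0 for TAC WT versus Sham WT, with Ndufs1 lowest at -0.34, and above 0 for TAC KO versus TAC WT, with Ndufa7 highest at 0.38. TAC WT libraries enter both panels.

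The difference was smaller once the GC and length trends were removed. Tested genes in the shortest quintile, where 29 members lie, had a median log2 fold change of 0.13 in the same comparison, and those in the longest quintile -0.17. Across the 36 genes, Spearman's rho of the fold change with GC content was 0.58, against 0.31 over all tested genes, as a description of genes that share the same libraries. With length it was 0.26 in the 36 genes, opposite in sign to the -0.29 over all tested genes. After removal of the trends the members' rho was 0.53 with length and -0.20 with GC content. Over all tested genes these were then -0.027 and -0.00093, so the removal left trends among the members. After both trends were removed, 29 of 36 genes were positive with a median of 0.08, and edgeR called 6 higher, against 12.4% of tested genes. Of the 6, Ndufa7 (0.20, edgeR adjusted p = 0.00649), Ndufb5 (0.16, edgeR adjusted p = 0.0162), Ndufs3 (0.15, edgeR adjusted p = 0.0235), Ndufv1 (0.16, edgeR adjusted p = 0.0322) and Ndufv2 (0.31, edgeR adjusted p = 0.00148) were also called before. Ndufs4 was called only now, at 0.18 (edgeR adjusted p = 0.0169).

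The other 15 first calls were lost. Ndufa13 went from 0.22 to 0.0014 and Ndufb7 from 0.23 to 0.0092. Only Ndufs7 is richer in GC than these 2 members, which have 60.4% and 59.7%. Ndufv2, the poorest at 42.0%, went up from 0.25 to 0.31. The fit takes from each gene a trend set by its own GC content and length. The direction of these shifts therefore follows from the method and is not a separate observation. The trends cannot be told apart from the genotype, because all 4 TAC KO libraries carry them and no wild-type library does to that extent.

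**Figure D4:**
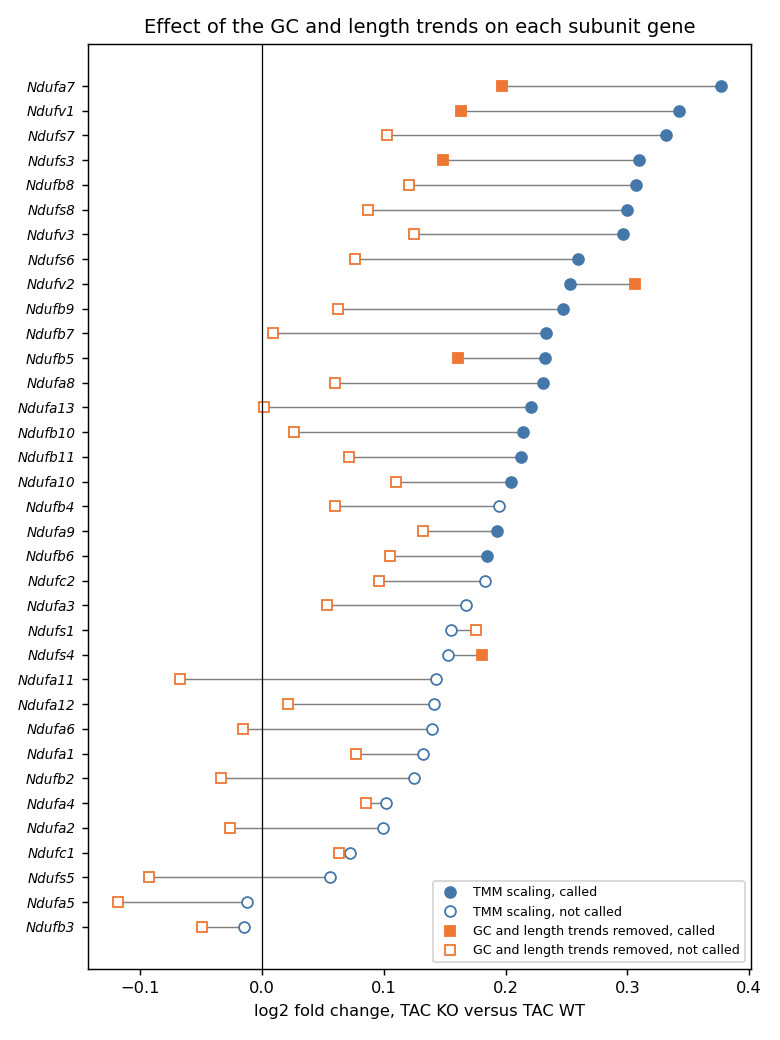
Log2 fold change of 35 of the 36 genes between TAC KO and TAC WT before (circles) and after (squares) removal of the GC and length trends. Filled symbols passed the edgeR threshold. Most genes have a lower value after removal, such as Ndufa13 at 0.0014 from 0.22, while Ndufv2 has a higher one.

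The summed level of the 36 genes in TAC KO was 12718, 12424, 12346 and 13481 CPM, above every TAC WT library. With the trends removed it was 11814, 11992, 11841 and 12663 CPM against 10903, 11609, 11795 and 10904 CPM in TAC WT. The groups still did not overlap, though TAC KO 1 was only just above TAC WT 3. TAC KO 4 was above its group mean for all 36 genes. Leaving out 1 library gave between 13 genes called higher (without TAC WT 1) and 28 (without TAC WT 3), with 14 without TAC KO 4. Shares over all tested genes are not given for these fits either.

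**Figure D5:**
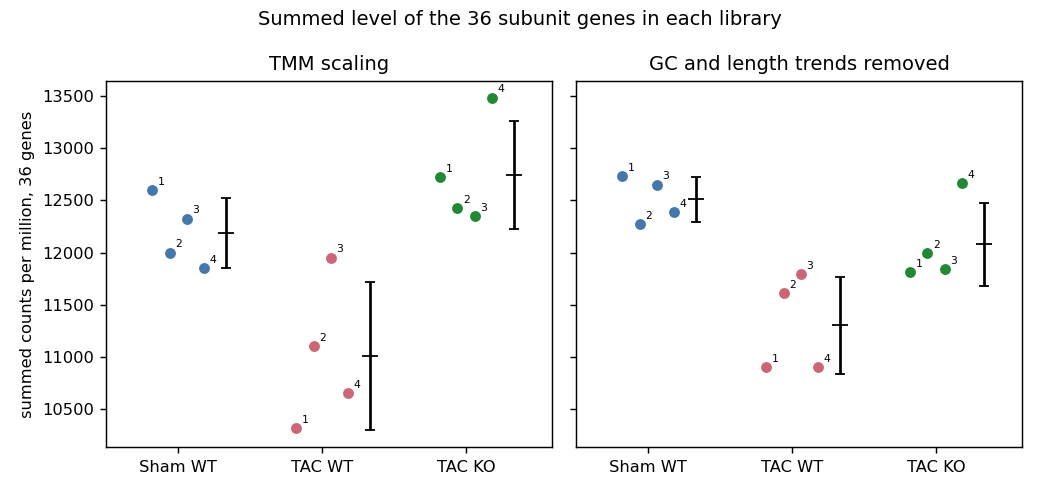
Summed CPM of the 36 genes in each library, with TMM scaling (left) and with the GC and length trends removed (right). Points are numbered libraries, and bars are the mean and SD of 4. TAC WT is lowest in both panels, and TAC KO lies above Sham WT in the mean on the left and below it on the right. The vertical axis does not start at 0.

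Knockout hearts after TAC were last set against sham-operated wild-type hearts, a comparison in which both surgery and genotype differ. Here few genes passed. EdgeR called 3 higher, against 12.8% of tested genes, and 0 lower, against 14.8%. In the lower direction 2 genes had an unadjusted p under 0.05 in edgeR, and DESeq2 and limma voom called 0. The median log2 fold change was 0.09, against 0.00031 over all tested genes, and 33 of 36 were positive. The 3 were Ndufb5 at 0.19 ± 0.06 (edgeR adjusted p = 0.0229), Ndufa7 at 0.18 ± 0.06 (edgeR adjusted p = 0.0367) and Ndufs3 at 0.17 ± 0.05 (edgeR adjusted p = 0.0327). None of the 3 calls was kept without Sham WT 3 or without Sham WT 4. The count was 1 without Sham WT 2 or without TAC KO 4, 5 without Sham WT 1 and 6 without TAC WT 3. These counts too stand without a share over all tested genes.

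The sign of this comparison depended on the GC and length trends. After their removal 11 of 36 genes were positive, the median was -0.06, and edgeR called 2 higher, Ndufb3 and Ndufv2, against 9.71% of tested genes. It called 4 lower, Ndufa5, Ndufa13, Ndufb10 and Ndufb11, against 11.7%. No gene was called in both fits. The members' rho of the fold change with GC content turned from 0.33 before to -0.58 after, against -0.023 over all tested genes after. The fit with trends removed thus left an opposite GC trend among the members, which limits the reading of this change of sign. Ndufs1 had -0.18 ± 0.08 (edgeR adjusted p = 0.0852) before and -0.15 (edgeR adjusted p = 0.133) after. Without TAC KO 4 it was called lower, at -0.23 (edgeR adjusted p = 0.0406).

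The mitochondrially encoded subunits, which form the core of the membrane arm, were far more abundant. Their summed level was 92499 to 99988 CPM after sham surgery, 72988 to 85667 CPM in TAC WT, and from 74813 to 94432 CPM in knockout libraries. Of 7 genes, 5 were tested, and mt-Nd3 and mt-Nd4l had 15 and 14 counts in all. After TAC all 5 were negative. EdgeR called 1 lower, against 10.0% of tested genes: mt-Nd5 at -0.42 ± 0.09 (edgeR adjusted p = 0.00472). DESeq2 called 3 lower and limma voom 5. With the trends removed edgeR called mt-Nd1, mt-Nd2 and mt-Nd5 lower, from -0.40 to -0.22 (edgeR adjusted p = 0.0339, 0.0471 and 0.00393), against 11.6% of tested genes. Between TAC KO and TAC WT edgeR called 0, with mt-Nd1 nearest at 0.18 ± 0.08 (edgeR adjusted p = 0.108). For that contrast 1 gene had an unadjusted p under 0.05, and DESeq2 and limma voom called 1 each. With the trends removed mt-Nd1, mt-Nd2 and mt-Nd5 were called higher, from 0.34 to 0.37 (edgeR adjusted p = 0.0035, 0.00533 and 0.00551), against 12.4% of tested genes. Against Sham WT, mt-Nd6 was called lower in TAC KO at -0.44 ± 0.11 (edgeR adjusted p = 0.0113), but at -0.11 with the trends removed it was not (edgeR adjusted p = 0.455).

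Assembly factors build complex I but are not part of it. None of 18 passed after TAC in edgeR, where 10.0% of all tested genes were called lower and 9.67% higher. In the lower direction 2 had an unadjusted p under 0.05 in edgeR, and DESeq2 called 0 and limma voom 2. With so few genes, 0 calls cannot be told apart from those shares. Between TAC KO and TAC WT 9 of 18 were called higher, against 15.7% of all tested genes, and 0 lower, against 17.3% (1 lower at an unadjusted p under 0.05, 0 by DESeq2 and 0 by limma voom). Nubpl, which delivers iron-sulfur clusters, had 0.34 ± 0.10 (edgeR adjusted p = 0.0185), Acad9 had 0.32 ± 0.07 (edgeR adjusted p = 0.00338) and Tmem126a had 0.27 ± 0.07 (edgeR adjusted p = 0.00928). These 3, with Ndufaf7 and Tmem70, were the 5 called higher with the trends removed, against 12.4% of tested genes. Ndufaf2 was then called lower, at -0.23 (edgeR adjusted p = 0.0133), against 13.9% of tested genes.

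Regulators of mitochondrial genes gave a mixed picture. After TAC edgeR called 3 of 9 lower, against 10.0% of tested genes. The 3 were Ppargc1a, the coactivator of mitochondrial biogenesis (-0.43 ± 0.13, edgeR adjusted p = 0.0344), Esrra, an orphan nuclear receptor (-0.27 ± 0.07, edgeR adjusted p = 0.0197), and Gabpa, an ETS factor (-0.24 ± 0.07, edgeR adjusted p = 0.0261). For Ppargc1a the groups overlapped, since TAC WT 2 had 103 CPM, within the sham range of 93.4 to 104 CPM, and the other TAC WT libraries had 60.3 to 68.9 CPM. Esrra was 209, 199, 186 and 193 CPM after sham surgery, 158, 184, 160 and 152 CPM in TAC WT, and 224, 186, 209 and 207 CPM in knockout libraries. It was called higher in TAC KO than in TAC WT at 0.34 ± 0.07 (edgeR adjusted p = 0.00353), but at 0.16 with the trends removed it was not (edgeR adjusted p = 0.108). Ppargc1a was not called in that contrast (-0.22 ± 0.13, edgeR adjusted p = 0.232). Gabpb1 and Ppargc1b were lower by edgeR, at -0.29 and -0.25 (edgeR adjusted p = 0.017 and 0.0486). That made 1 of 9 called higher, against 15.7% of tested genes, and 2 lower, against 17.3%. DESeq2 also called 2 regulators lower there, and limma voom called 0. With the trends removed edgeR called 3 lower, Gabpb1, Ppargc1b and Nrf1, against 13.9%, and 0 higher, against 12.4%. Against Sham WT, edgeR called Ppargc1a, Ppargc1b and Gabpa lower in TAC KO, where 14.8% of tested genes were lower. It called 0 higher, against 12.8%. With the trends removed these 3 and Nrf1 were lower, against 11.7%, and 0 higher, against 9.71%. Ppargc1a was 59.2 to 68.9 CPM in knockout libraries, below the sham range.

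Marker genes of other cells moved between the groups too. In TAC KO against TAC WT edgeR called 5 of 8 macrophage markers and 4 of 10 fibroblast markers higher. Among smooth muscle and pericyte markers 3 of 8 were higher and 1 lower. Endothelial markers had 2 of 8 lower, and cardiomyocyte markers 4 of 12 higher. The shares over all tested genes were 15.7% higher and 17.3% lower. With the GC and length trends removed, the calls higher were 5 macrophage, 2 fibroblast, 3 smooth muscle and pericyte and 2 cardiomyocyte markers. Those lower were 4 endothelial and 2 cardiomyocyte markers, against 12.4% higher and 13.9% lower over all tested genes. Summed macrophage markers were 213 to 265 CPM after sham surgery, 202 to 297 CPM in TAC WT, and from 293 to 398 CPM in knockout libraries. Summed cardiomyocyte markers were 81922 to 93867, 75594 to 79812 and 76292 to 82115 CPM in the same order. After TAC 3 of 12 were called lower, against 10.0% of tested genes, and 1 higher, against 9.67%. Fibroblast sums were 1765 to 2011, 1941 to 2395 and 2360 to 2948 CPM. No marker of these lists was at 0 throughout a group. Their part in the subunit results was not tested.

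Spread within a group was modest. The median coefficient of variation of the 36 genes was 3.89% after sham surgery, 7.86% in TAC WT, and 4.94% in the knockout. Among the 5272 tested genes at or above the level of the lowest member it was 4.9%, 7.62% and 7.28%. The wider spread of TAC WT came with the positions of TAC WT 1 and TAC WT 3 given above.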

How the data were processed

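Polyadenylated RNA from 12 mouse heart libraries in 3 groups of 4 was analysed, made from 250 ng of RNA per the labels. The authors deposited raw counts per gene, 1 file per library. The submitters' processing notes name STAR, featureCounts 1.6.4, Trim Galore 0.5.0, DESeq2 and the build GRCm38. The sources used here do not state the strand setting. Replicates were numbered in accession order.

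Counts were tested in R 4.3.3 with edgeR 4.0.16 (TMM scaling, filterByExpr, quasi-likelihood test, all 12 libraries, group as the only factor). P-values were adjusted over all 15477 tested genes. Lengths and GC came from GENCODE principal transcripts, and trends were removed as splines with 5 degrees of freedom. Alternatives were DESeq2 1.42.0, limma 3.58.1 voom with quality weights, other scalings and filters, the compared groups alone, and each library left out. The test was checked on simulated data.

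Members and lists were chosen with earlier results of these data known. All members were counted, and the values of 1 member are not reported here. The core subunits, Ndufa9, Ndufa4, up to 5 members at each end of those passing, up to 3 of those not passing, and up to 4 of each other list were named. Other members were named after their values were seen. The limit given for 0 counts covers counting error only, while SEs and SDs include the spread between libraries.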

Additional observations from a re-analysis of the deposited data

Results flagged for a closer look

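In groups of 4 libraries, a library was picked out where its gap to the nearest other, as a share of the group's whole range, exceeded Dixon's critical value, which chance gives in about 5% of groups. This held for 5 of 111 groups of values examined. Ndufb10 was 588 CPM in Sham WT 1 against 522 to 531 CPM in the other sham libraries. Ndufc2 was 200.4 CPM in the same library against 170.1 to 175 CPM. Ndufb7 was 256 CPM in Sham WT 4 against 268 to 271 CPM. Ndufb3 was 228 CPM in TAC WT 3 against 201 to 204 CPM, and Ndufs4 was 195 CPM in that library against 169.5 to 172 CPM.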

How the results depend on the processing

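No paired analysis was possible because the labels give no replicate numbers. In 777 comparisons of a named member with an alternative, 674 kept direction and side of the threshold, 46 lost the call, 51 gained one and 6 reversed. All 6 reversals were in TAC KO versus Sham WT. With the GC and length trends removed, the log2 values were Ndufv1 -0.10, Ndufs3 -0.0059, Ndufs7 -0.049, Ndufs8 -0.092 and Ndufa11 -0.026. Without TAC KO replicate 4, Ndufa4 was -0.0067, and it reached 0.046 without TAC KO replicate 1. The cause was not tested.

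Counts of members called moved as follows. Shares over all tested genes are given only for the main edgeR fit and the fit with trends removed. Counts from other tools, filters, scalings and left-out libraries, here and above, therefore have no background beside them. For TAC WT versus Sham WT, 1 was higher under scaling without mitochondrially encoded genes, DESeq2, limma voom, the 1 CPM filter and trend removal. In the same contrast, 12 were lower by DESeq2, 18 by voom, 2 without a low-count filter and 13 with trends removed. For TAC KO versus TAC WT, 6 were higher with trends removed. For TAC KO versus Sham WT, 6 were higher under upper-quartile scaling, DESeq2, voom and the compared groups alone, 5 under the 1 CPM filter and 0 without a filter, and 4 were lower with trends removed.

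Leaving out 1 library gave, for TAC WT versus Sham WT, 0 to 1 higher and 2 to 15 lower. It gave 13 to 28 higher and 0 to 0 lower for TAC KO versus TAC WT, and 0 to 6 higher and 0 to 1 lower for TAC KO versus Sham WT. With 4 libraries a group and SEs near 0.07, most fold changes under 0.15 did not pass.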
